A study of Homo sapiens with 12 samples.

Results

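The question here was what 5-fluorouracil (5-FU) still changed in RKO cells that also received thymoquinone (TQ). It was addressed by comparing the 3 arrays of cells given both drugs (TQ+5-FU) with the 3 arrays of cells given TQ alone, which are 6 of the 12 arrays in the series. All 22215 probe sets that are not Affymetrix controls, of 22277 in the table, entered the comparison, and 19064 of them name a single gene, which gives 11963 genes. TQ was used at 20 µM and 5-FU at 10 µg/mL (76.8 µM), and RNA was collected after 24 h of treatment. The other arrays, 3 of 5-FU alone and 3 of control cells that the labels call untreated and the methods describe as given DMSO, show what 5-FU did without TQ. They share no array with the TQ+5-FU and TQ groups. RKO is a human colon carcinoma line with functional p53. All arrays come from this one line, so the values describe a single genetic background. The methods speak of independent biological replicates without tying them to arrays, and no label names a culture, so the spread behind the p-values may be technical.

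5-FU is a pyrimidine analogue whose metabolites block thymidylate synthase and enter RNA and DNA, and the resulting DNA and nucleolar stress stabilises p53, the transcription factor that switches on genes of arrest, repair and death. TQ is a reactive quinone of black cumin seed oil. NF-κB drives inflammatory and survival genes and induces its own inhibitors, and ATF4 is the transcription factor of the integrated stress response that supplies amino acid transporters, tRNA synthetases and the glutathione-degrading enzyme CHAC1.

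Values are RMA log2 signals, so a difference of 1 is a 2-fold change, and rose or fell is written only of genes to which limma gave a Benjamini-Hochberg adjusted p under 0.05 over all 22215 probe sets. TQ+5-FU replicate 2 stood apart: its correlations with its replicates were 0.972 and 0.985, whereas TQ+5-FU replicates 1 and 3 correlated at 0.996 and the TQ arrays at 0.9965 to 0.9983. Its poly-A spike-in signal, a control for the labelling step, was 8.95 against 8.24 and 8.42 in its replicates, although TQ replicate 1 and control replicate 3, which did not stand apart, had 8.84 and 8.97. 5-FU replicate 3 stood apart in the same manner, with correlations of 0.906 and 0.917 and a spike-in signal of 9.47, and it enters every adjusted p through the common residual variance. The part of these arrays in the results was not tested, and counts are given with and without them. Markers of other cell types moved with the same arrays. The median difference from the TQ mean was 0.36 for 20 leukocyte, 0.33 for 16 fibroblast and 0.41 for 11 endothelial markers in replicate 2, against -0.07 to 0.11 in replicates 1 and 3. None of these markers rose or fell, and the median of all genes was also raised in replicate 2, by 0.25. As a check of the cells, the epithelial genes KRT18 and EPCAM had signals of 11.91 to 12.81 and 8.37 to 9.61 over the 12 arrays. They were the highest of 20 colon epithelial markers. The next, KRT8, had a mean of 7.0, with 48.2% of genes lower, so most of these markers were not high. The fibroblast markers TAGLN (mean 8.67) and COL1A1 (mean 8.18) lay above KRT8. The colon epithelial genes CDH1 and KRT20 stayed at 3.48 to 4.06 and 2.73 to 3.32, although levels of different probe sets are not directly comparable.

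Promoter sequences are shown for 4 genes that stand for the 3 groups described below. ACTA2 is a p53 target that rose, TNFAIP3 is an NF-κB target whose rise was smaller with TQ, and CHAC1 and AARS1 are genes of ATF4 and amino acid supply that fell with 5-FU alone. The sequences are RefSeq promoters of GRCh38.p14, 250 bases before and 50 bases after the annotated start, written along the gene's strand. Capitals mark matches, on either strand, to the p53 half-site in ACTA2 (minus strand, chr10:88991288-88991587), to the NF-κB site in TNFAIP3 (plus strand, chr6:137867009-137867308) and to TGATGNAA, the core of the C/EBP-ATF response element, in CHAC1 (plus strand, chr15:40953221-40953520) and AARS1 (minus strand, chr16:70289457-70289756).
ACTA2: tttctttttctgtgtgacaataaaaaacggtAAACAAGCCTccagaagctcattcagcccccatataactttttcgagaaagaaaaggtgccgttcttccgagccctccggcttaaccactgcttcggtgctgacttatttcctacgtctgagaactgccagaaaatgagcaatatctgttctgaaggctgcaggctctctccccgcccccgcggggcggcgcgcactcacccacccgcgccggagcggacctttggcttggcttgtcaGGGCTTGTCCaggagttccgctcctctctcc
TNFAIP3: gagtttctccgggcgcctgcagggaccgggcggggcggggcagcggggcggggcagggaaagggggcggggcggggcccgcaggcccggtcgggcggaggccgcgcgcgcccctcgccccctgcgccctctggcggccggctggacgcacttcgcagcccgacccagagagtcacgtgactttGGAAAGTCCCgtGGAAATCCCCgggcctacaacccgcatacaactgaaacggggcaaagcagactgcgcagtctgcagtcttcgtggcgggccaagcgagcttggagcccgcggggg
CHAC1: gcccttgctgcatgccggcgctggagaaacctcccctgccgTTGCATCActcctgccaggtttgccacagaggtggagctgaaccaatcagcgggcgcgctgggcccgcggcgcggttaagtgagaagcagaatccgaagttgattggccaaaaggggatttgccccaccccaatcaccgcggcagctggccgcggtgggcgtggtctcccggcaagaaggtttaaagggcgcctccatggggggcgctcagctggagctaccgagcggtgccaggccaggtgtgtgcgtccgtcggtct
AARS1: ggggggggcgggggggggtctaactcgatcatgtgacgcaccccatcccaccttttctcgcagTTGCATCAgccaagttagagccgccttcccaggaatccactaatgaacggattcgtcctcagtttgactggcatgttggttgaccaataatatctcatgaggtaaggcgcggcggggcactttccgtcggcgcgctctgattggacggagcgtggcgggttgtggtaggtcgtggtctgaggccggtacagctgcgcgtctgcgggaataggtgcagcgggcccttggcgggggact
Counted from the start, the TNFAIP3 matches begin at -67 and -55 and do not overlap, and those of ACTA2 begin at -219 and 19. Of 27305 promoters, 6.54% hold a p53 half-site, 5.72% an NF-κB site and 3.67% the TGATGNAA core. Among the genes that rose with TQ+5-FU against TQ, 101 have a promoter in the table and 11 of them (10.9%) hold a p53 half-site, against 5.56% of the 9563 array genes with a promoter and 1 of 10 genes that fell. The risen genes held the TGATGNAA core in 5.94% and the array genes in 2.25%. The promoters of GDF15, TP53I3, DDB2 and PLK3 do not hold these letters in this window.

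In cells given TQ, adding 5-FU raised many more genes than it lowered when all arrays were used. At the level of genes, 126 of 11963 rose (1.05%) and 12 fell (0.1%), and 39 of the former and 4 of the latter changed at least 2-fold. Over probe sets, 182 rose (0.819%) and 33 fell (0.149%). For each of the 138 genes the TQ+5-FU arrays did not overlap the TQ arrays, which was true of 30.6% of all genes. Without TQ+5-FU replicate 2, 41 probe sets rose (0.185%) and 4 fell (0.018%), and at the gene level 30 rose (0.251%) and 0 fell (0.0%; 1408 probe sets had an unadjusted p under 0.05), so that 29 of the 126 risen and 0 of the 12 fallen genes still passed. The count of probe sets that passed, 215 with all arrays, was 45 without that replicate. It was 34, 50 and 32 without TQ replicates 1, 2 and 3, and 145 and 36 without TQ+5-FU replicates 1 and 3. A loss of this size was thus not particular to replicate 2. With TQ+5-FU replicate 2 and 5-FU replicate 3 both left out, all 138 passed, among 1023 genes that rose (8.55%) and 502 that fell (4.2%). At least 2-fold, 72 probe sets rose and 76 fell in that setting, where 55 rose and 17 fell with all arrays. Leaving out 5-FU replicate 3 alone gave 88 and 360. The excess of 2-fold increases thus depended on the arrays used. Replicate 2 was the highest of the TQ+5-FU arrays for 86 of the 126 risen genes and the lowest for 11 of the 12 fallen ones.

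Targets of p53 led the increases. GDF15, a stress cytokine, had log2 signals of 7.28, 7.17 and 6.97 with TQ and of 10.23, 10.65 and 10.58 with TQ+5-FU. This is a rise of 3.35 (SE 0.18, adjusted p = 3.3e-05), or 10.2-fold, and the highest TQ array lay far below the lowest TQ+5-FU array. TP53I3, a quinone oxidoreductase that p53 induces, went from 8.58, 8.44 and 8.44 to 10.69, 10.85 and 10.86, a rise of 2.31 (SE 0.13, adjusted p = 3.3e-05). DDB2, which recognises ultraviolet lesions in nucleotide excision repair, went from 8.41, 8.37 and 8.25 to 10.31, 10.51 and 10.40, a rise of 2.06 (SE 0.11, adjusted p = 3.3e-05). In these 3 genes the TQ+5-FU arrays, replicate 2 included, lay close together and well above the TQ arrays. ACTA2, smooth muscle actin, rose from 7.16, 7.12 and 7.08 to 8.88, 9.30 and 8.92 (log2 fold change 1.92, SE 0.20, adjusted p = 0.0025), while another probe set of this gene had a difference of the opposite sign. ATF3, a stress-induced transcription factor, rose from 8.64, 8.76 and 8.43 to 10.26, 10.59 and 10.29 (log2 fold change 1.77, SE 0.13, adjusted p = 4.2e-04). All 5 passed without TQ+5-FU replicate 2 too.

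**Figure D1:**
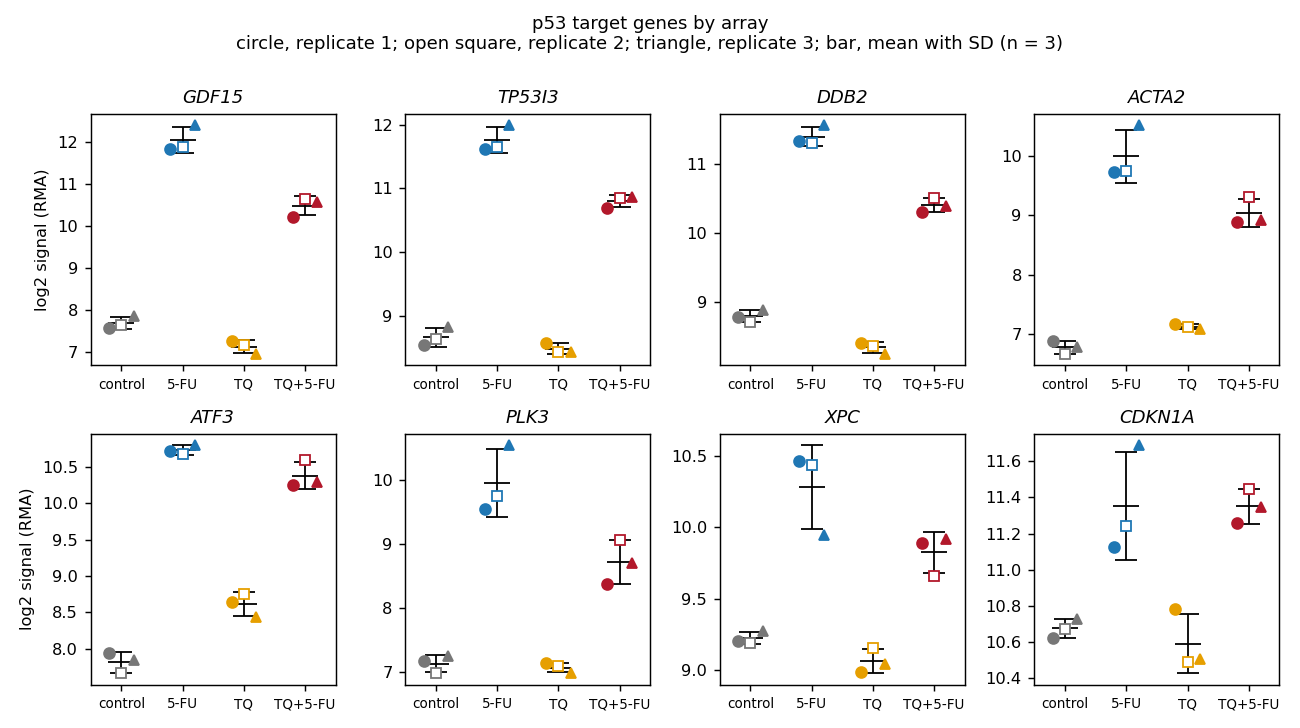
Log2 signals (vertical axes, RMA units, each panel on its own range) of 8 p53 target genes in the 4 groups, with 1 point per array and the mean with SD (n = 3). In each panel the TQ+5-FU arrays lie above the TQ arrays, and GDF15 moves the most, from 7.14 to 10.49 on average.

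Among 21 p53 targets of cell cycle arrest and feedback, 8 rose and 0 fell. Beside GDF15 and ATF3 these were the kinase PLK3 (1.64), PHLDA3, which restrains AKT (1.52), CDC42EP3 (1.01), RPS27L (0.90), the antiproliferative gene BTG1 (0.68) and GADD45A, a growth arrest gene (0.58). PLK3 and PHLDA3 passed with TQ+5-FU replicate 2 (adjusted p = 0.018 and 0.020) and not without it (0.079 and 0.10). Among 22 p53 targets of death and repair, 6 rose and 0 fell. Beside TP53I3, DDB2 and ACTA2 these were CYFIP2 (1.02), the damage sensor XPC (0.76) and the TRAIL receptor gene TNFRSF10B (0.65). The medians of the lists were 0.82 and 0.77, where the median over all genes was 0.10. Over all genes 1.05% rose and 0.1% fell, and 8.55% and 4.2% without both displaced arrays. Without TQ+5-FU replicate 2, 4 of 21 (GDF15, ATF3, RPS27L and MDM2) and 4 of 22 (TP53I3, DDB2, ACTA2 and CYFIP2) passed, and with both displaced arrays left out 19 and 13 rose and none fell. The medians were 0.90 and 0.70 in both settings. In single arrays the medians against the TQ mean were 1.05, 0.86 and 0.86 for arrest and 0.70, 0.59 and 0.68 for death and repair, so replicate 2 was not the highest array in either list. The median change of the death and repair list was still higher with replicate 2 (0.77) than without it (0.70).

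CDKN1A, the gene of the kinase inhibitor p21, was at 10.78, 10.49 and 10.50 with TQ and at 11.26, 11.45 and 11.35 with TQ+5-FU. The groups did not overlap, and the difference of 0.76 (SE 0.15) just missed the threshold (adjusted p = 0.0505; 0.22 without TQ+5-FU replicate 2; 0.0023 without both displaced arrays). MDM2, the ubiquitin ligase that degrades p53, was at 7.53, 7.59 and 7.54 with TQ and at 8.68, 7.90 and 8.55 with TQ+5-FU. Replicate 2 was the lowest of these, and the difference of 0.82 (adjusted p = 0.10) became 1.06 without it (adjusted p = 0.049). The death receptor gene FAS was at 8.96, 9.23 and 9.17 with TQ and at 10.81, 9.18 and 10.29 with TQ+5-FU, so replicate 2 alone overlapped the TQ arrays. The difference of 0.97 (SE 0.75, adjusted p = 0.67) was 1.43 without replicate 2 and passed without both displaced arrays (adjusted p = 5.6e-04).

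Other large increases came from genes outside these lists. ASTN2, an astrotactin, rose by 1.74 (SE 0.15, adjusted p = 6.4e-04), SUSD6 by 1.32 (SE 0.13, adjusted p = 0.0019) and the E3 ligase gene RNF19B by 1.46 (SE 0.14, adjusted p = 0.0016). The cytokine gene IL11 rose by 1.65, GREB1, an estrogen-regulated gene in breast cells, by 1.58, ELAPOR1 by 1.5 and KANK3 by 1.28. IL11, ELAPOR1 and KANK3 did not pass without TQ+5-FU replicate 2 (adjusted p = 0.18, 0.063 and 0.14). The mean signals with TQ of GREB1 (3.84), ELAPOR1 (3.73) and KANK3 (4.88) lay within or below the leukocyte marker medians of those arrays (4.80 to 4.92). The size of the change of these genes is therefore uncertain. CCN2, a matrix protein gene of the immediate early and YAP response, went from 7.13, 7.30 and 7.18 to 8.42, 8.51 and 8.45, a rise of 1.26 (SE 0.10, adjusted p = 4.3e-04), with all arrays of a group close together. DUSP1, a MAP kinase phosphatase, rose by 0.90 and the inhibitor of bHLH factors ID2 by 0.98, and neither passed without TQ+5-FU replicate 2 (adjusted p = 0.20 and 0.15). ID2 stood at 9.10, 9.20 and 9.12 with TQ, where control cells had 6.34, 6.28 and 6.55, and at 10.25, 10.19 and 9.90 with TQ+5-FU. Of 34 immediate early genes 2 rose and 0 fell, and without both displaced arrays 16 rose and 1 fell. Over all genes 1.05% rose and 0.1% fell, and 8.55% and 4.2% without both displaced arrays.

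Most genes that 5-FU raised in TQ-treated cells it also raised without TQ. Without TQ, 517 genes rose (4.32%) and 355 fell (2.97%), and 25.7% of all genes had groups that did not overlap. When both displaced arrays were left out, 1782 rose (14.9%) and 1608 fell (13.4%). Of the 126 genes that rose with TQ present, 122 had a positive change without TQ and 105 passed there, and 85 (67.5%) had the larger change without TQ, as did 60.4% of all genes. The interaction passed for 3 of the 126. The medians of the 126 genes were 0.80 with TQ and 0.96 without. Seen from the other side, 514 of the 517 genes that rose without TQ were also above 0 with TQ, with medians of 0.97 without TQ and 0.62 with it. Of the 355 genes that fell without TQ, 270 were below 0 with TQ and 3 fell, and their medians were -0.74 without TQ and -0.12 with it. Each pair of medians contains the contrast that chose the genes, so the comparison within a pair is a description. The other contrast had the larger median for the 126 genes and the smaller one, in size, for the 517 and the 355. Across all genes the changes by 5-FU with and without TQ correlated at r = 0.72, and at 0.45 without both displaced arrays. Genes are not independent replicates here.

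**Figure D2:**
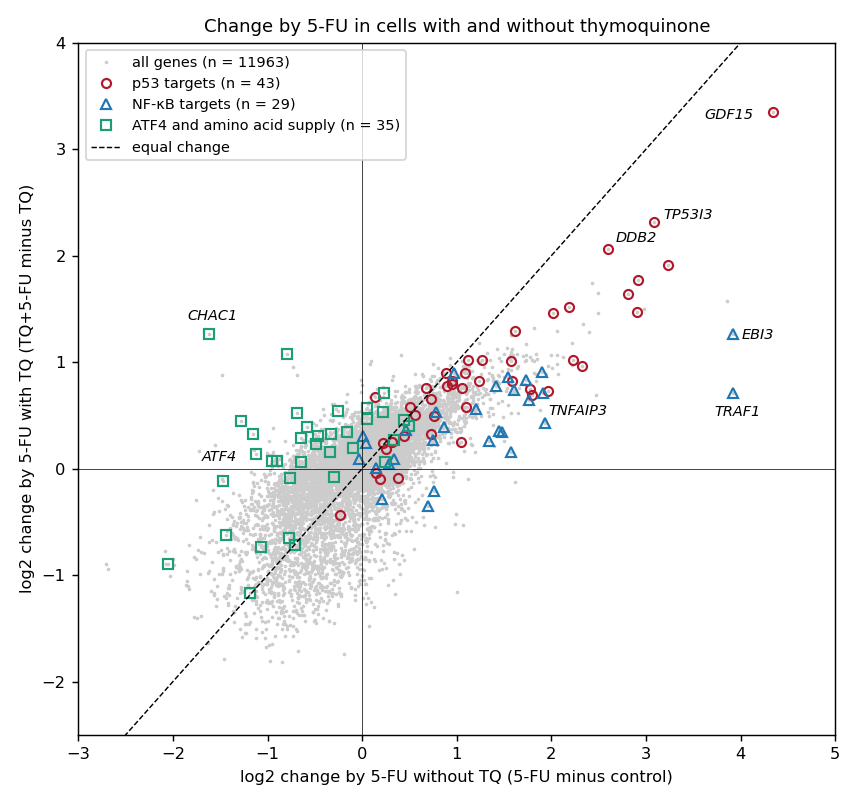
Log2 change by 5-FU without TQ (horizontal) against the log2 change by 5-FU with TQ (vertical), 1 point per gene, with 43 p53 targets, 29 NF-κB targets and 35 ATF4 and amino acid supply genes marked. GDF15 lies at 4.34 and 3.35, TRAF1 at 3.91 and 0.71 and CHAC1 at -1.62 and 1.26, and the dashed line marks equal change.

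For p53 targets the change by 5-FU was smaller with TQ in the point estimates, with the larger change without TQ in 18 of 21 arrest and 19 of 22 death and repair genes, against 7226 of all 11963 genes. The difference between the changes, the interaction, did not pass for any of them. GDF15 changed by 3.35 with TQ and 4.34 without (interaction -0.99, SE 0.25, adjusted p = 0.25), TP53I3 by 2.31 and 3.09 (adjusted p = 0.21), DDB2 by 2.06 and 2.60 (adjusted p = 0.38) and ATF3 by 1.77 and 2.92 (interaction -1.15, SE 0.19, adjusted p = 0.059). CYFIP2, TNFRSF10B and CDKN1A had nearly the same change in both settings, with interactions of -0.10 (SE 0.12), -0.08 (SE 0.14) and 0.08 (SE 0.22). With both left out, the interaction was below 0 and passed for 13 of the 21 arrest and 7 of the 22 death and repair genes, and it was above 0 and passed for 1 arrest gene, BTG1.

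Over all genes the interaction passed for 20, 15 above 0 (0.125%) and 5 below 0 (0.0418%), and for 28 probe sets, 20 above 0 (0.09%) and 8 below 0 (0.036%). These calls lie close to the threshold, with adjusted p from 0.031 to 0.050. With 1 array left out the count of probe sets was 0 or 1, except without 5-FU replicate 3, where it was 623. Without TQ+5-FU replicate 2 the adjusted p of the 20 genes ran from 0.084 to 0.14, and without both displaced arrays all 20 passed, among 704 genes above 0 (5.88%) and 623 below 0 (5.21%). All 20 genes changed with 5-FU alone, and 3 of them (GREB1, TNFAIP3 and the diacylglycerol kinase gene DGKA) also rose with TQ present.

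Several NF-κB targets rose far more with 5-FU alone than with TQ present. TRAF1, an adaptor of TNF receptors, was at 5.99, 5.63 and 6.04 in control cells and at 9.47, 9.44 and 10.50 with 5-FU, a rise of 3.91 (SE 0.27). With TQ it was at 6.64, 6.36 and 6.47, and with TQ+5-FU at 6.91, 7.38 and 7.30, a difference of 0.71 (SE 0.27, adjusted p = 0.31) whose arrays did not overlap. The interaction was -3.20 (SE 0.38, adjusted p = 0.031). EBI3, a subunit of interleukin 27, was at 5.08, 4.65 and 4.75 with TQ and at 5.81, 6.34 and 6.13 with TQ+5-FU. Its difference of 1.27 (adjusted p = 0.0501) compares with a rise of 3.92 without TQ (interaction -2.65, SE 0.36, adjusted p = 0.032). TNFAIP3, the ubiquitin-editing inhibitor of NF-κB whose promoter is printed above, went from 7.0, 6.95 and 6.83 to 7.76, 7.52 and 7.63. It rose by 0.71 (SE 0.11, adjusted p = 0.018) with TQ and by 1.91 without it (interaction -1.21, SE 0.15, adjusted p = 0.032).

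Of 29 NF-κB targets, 3 rose with TQ present (TNFAIP3, the activation marker CD83 by 0.83 and IER3, a survival gene, by 0.90) and 0 fell, with a median of 0.36. Without TQ, 16 rose and 0 fell, with a median of 1.2. With both displaced arrays left out, 15 rose with TQ (median 0.36) and 22 without it (median 1.19). The shares of all genes that rose were 1.05% with TQ and 4.32% without it, and 8.55% and 14.9% without both displaced arrays. The inhibitor gene NFKBIE had 0.91 with TQ (adjusted p = 0.13) and rose by 1.90 without it, NFKBIA had 0.78 (adjusted p = 0.095) and rose by 1.42, and the chemokine gene CXCL8 had 0.42 (adjusted p = 0.69) and rose by 1.93. The medians by array were 0.32, 0.53 and 0.41 over the TQ mean and 1.04, 1.17 and 1.34 over the control mean, and these ranges do not overlap. The displaced array was the highest in each. The interaction passed for 3 of the 29 genes, all below 0, and without both displaced arrays for 14, all below 0. Of the 26 members with a promoter in the table, 14 (53.8%) hold the NF-κB site, and the promoters of TRAF1 and EBI3 do not hold it in this window.

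**Figure D3:**
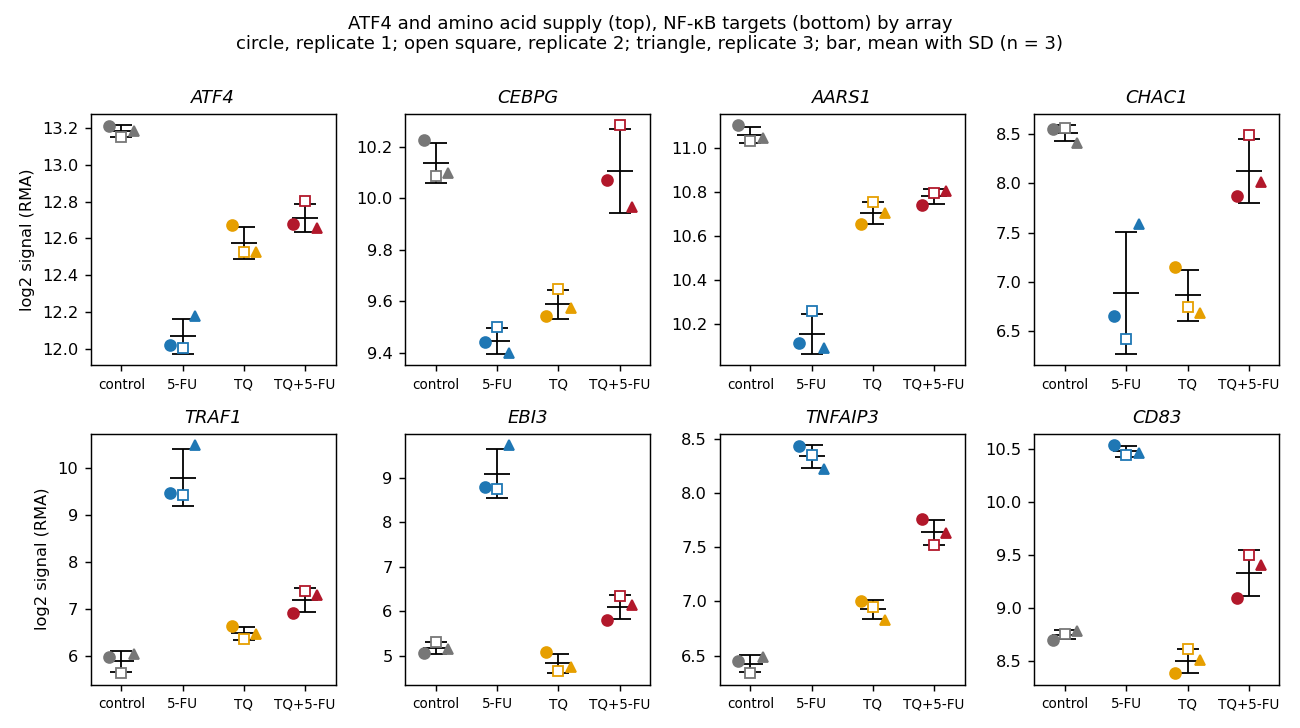
Log2 signals (vertical axes, RMA units, each panel on its own range) of 4 genes of ATF4 and amino acid supply and of 4 NF-κB targets in the 4 groups, with 1 point per array and the mean with SD (n = 3). ATF4 falls from 13.18 in control to 12.07 with 5-FU and stands at 12.58 with TQ and 12.71 with TQ+5-FU, and TRAF1 reaches 9.80 with 5-FU and 7.20 with TQ+5-FU.

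Of 35 genes of ATF4 and amino acid supply, 11 fell with 5-FU alone and 0 with TQ present. Over all genes 2.97% fell with 5-FU alone and 0.1% with TQ present, so the 0 is near the share of all genes. ATF4 itself was at 13.21, 13.15 and 13.19 in control cells and at 12.02, 12.01 and 12.18 with 5-FU, a fall of 1.12 on the log2 scale (SE 0.10). With TQ it was at 12.67, 12.53 and 12.53 and with TQ+5-FU at 12.68, 12.80 and 12.66, so that these groups overlapped, with a difference of 0.14 (adjusted p = 0.65). The interaction was 1.25 (SE 0.14, adjusted p = 0.031). CHAC1 was at 8.55, 8.56 and 8.41 in control cells, and both drugs alone had lower values, 6.66, 6.42 and 7.58 with 5-FU and 7.16, 6.74 and 6.69 with TQ. With TQ+5-FU it was at 7.87, 8.49 and 8.01, and only the displaced replicate 2 reached the control arrays. Its difference from TQ was 1.26 (SE 0.28, adjusted p = 0.073), its change with 5-FU alone -1.62, and its interaction 2.88 (SE 0.40, adjusted p = 0.032).

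The alanyl-tRNA synthetase gene AARS1 fell by 0.90 with 5-FU alone, from 11.10, 11.03 and 11.04 to 10.12, 10.26 and 10.09. With TQ it was at 10.66, 10.76 and 10.70 and with TQ+5-FU at 10.74, 10.79 and 10.80, overlapping groups with a difference of 0.07 (adjusted p = 0.78; interaction 0.98, SE 0.13, adjusted p = 0.032). The other members that passed the interaction were the synthetase genes CARS1 (0.97) and YARS1 (1.03) and CEBPG, a dimer partner of ATF4 (1.21). The asparagine synthetase gene ASNS had 1.73 with adjusted p = 0.0505. In all, of 35 genes of this list, 0 rose and 0 fell with TQ present (median 0.27), and 0 rose and 11 fell without TQ (median -0.65). The interaction passed for 6 and was above 0 in each. Without both displaced arrays 9 rose and 1 fell with TQ, 1 rose and 21 fell without it, and the interaction passed for 18, all above 0. The medians by array were 0.17, 0.37 and 0.21 over the TQ mean and -0.56, -0.48 and -0.62 over the control mean. DDIT4, an mTORC1 inhibitor that ATF4 induces, was at 9.23, 8.84 and 8.74 with TQ and at 9.75, 10.27 and 10.00 with TQ+5-FU (difference 1.07, adjusted p = 0.079; 0.0021 without both displaced arrays).

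Of the 15 genes with an interaction above 0, 13 have a promoter in the table and 5 of these (38.5%) hold the TGATGNAA core, namely CHAC1, AARS1, CARS1, TBL1X and TMEM268. The share is 2.25% among the 9563 genes of the array with a promoter and 9 of 31 promoters hold it in the list of ATF4 and amino acid supply. Counted from the start, the core begins at -209 in CHAC1 and at -187 in AARS1. CEBPG does not hold these letters in this window.

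Other genes with an interaction above 0 fell with 5-FU alone and differed little between TQ+5-FU and TQ. PTCH1, the hedgehog receptor, changed by -1.76 without TQ and by -0.29 with it (interaction 1.46), and the corepressor gene TBL1X by -1.58 and -0.20 (interaction 1.38). The transcription factor gene SOX4 changed by -0.82 and 0.26 (interaction 1.08). NOP14 and NAT10, which act in the maturation of the small ribosomal subunit, changed by -0.83 and -1.16 without TQ and by 0.04 and -0.14 with it. NOP14 belongs to a list of 45 nucleolar ribosome biogenesis genes, of which 0 rose and 11 fell without TQ (median -0.63) and 0 rose and 0 fell with it (median -0.07). Over all genes 2.97% fell without TQ and 0.1% with it. Without both displaced arrays 29 fell without TQ and 11 with it, and the interaction passed for 14, all above 0.

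Of the 12 genes that fell in TQ-treated cells, MKI67 had the largest change. MKI67, which coats mitotic chromosomes and marks cycling cells, was at 9.23, 9.17 and 8.99 with TQ and at 8.11, 7.21 and 8.06 with TQ+5-FU, a fall of 1.33 on the log2 scale (SE 0.24, adjusted p = 0.036), and its 3 other probe sets fell as well. CENPF, a kinetochore protein gene, went from 7.69, 7.57 and 7.52 to 6.84, 6.0 and 6.15 (log2 fold change -1.26, SE 0.22, adjusted p = 0.031). In both genes replicate 2 was the lowest array, and replicates 1 and 3 also lay below every TQ array. Without replicate 2 the differences were -1.04 (adjusted p = 0.085) and -1.10 (adjusted p = 0.13), and without both displaced arrays both genes passed. The others were the bromodomain gene BRWD1 (-1.31), RUFY2 (-1.20), the plexin gene PLXNC1 (-0.95), DDX60 (-0.94), RABEP1 (-0.90), the oxytocin receptor gene OXTR (-0.86), the centriole gene CPAP (-0.81), ZNF37A (-0.77), GTF2I (-0.68) and MAP1LC3C (-0.67). With TQ+5-FU the mean signals of OXTR (3.97), DDX60 (3.73) and ZNF37A (3.57) were as low as those of genes taken as low in these cells, such as CDH1 (3.73), so the size of their change is uncertain. BRWD1 (4.46), RUFY2 (4.47) and PLXNC1 (4.57) lay below the leukocyte marker medians of these arrays (4.78, 5.30 and 4.96). CPAP (5.31) and RABEP1 (5.41) lay just above them, so the size of the change is uncertain for these genes too.

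**Figure D4:**
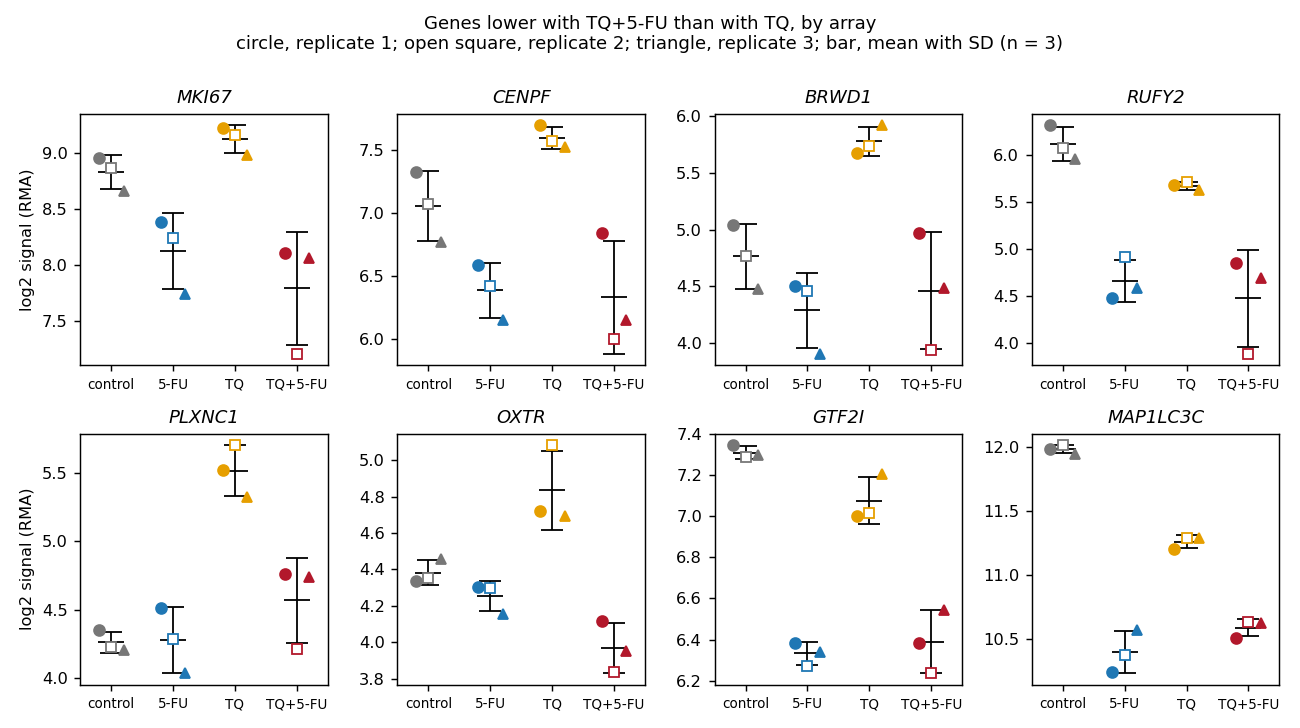
Log2 signals (vertical axes, RMA units, each panel on its own range) of 8 genes that were lower with TQ+5-FU than with TQ, in the 4 groups, with 1 point per array and the mean with SD (n = 3). The open square, replicate 2, is the lowest TQ+5-FU array in each panel except MAP1LC3C, where replicate 1 is the lowest at 10.51.

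The 3 of these genes that fell with 5-FU alone were RUFY2 (-1.46), GTF2I (-0.98) and MAP1LC3C (-1.59). PLXNC1 and OXTR changed by 0.02 and -0.13 without TQ, and their interactions (-0.97, adjusted p = 0.27, and -0.73, adjusted p = 0.24) did not pass. PLXNC1 stood at 4.35, 4.22 and 4.20 in control cells, at 5.52, 5.71 and 5.33 with TQ and at 4.76, 4.21 and 4.74 with TQ+5-FU.

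Of 64 mitosis genes, 0 rose and 1 fell (CENPF), with a median of -0.43. Without both displaced arrays 1 rose and 27 fell (median -0.33). Over all genes 1.05% rose and 0.1% fell with all arrays, and 8.55% and 4.2% without both displaced arrays. These shares apply to the other lists of this paragraph too. PLK1, a mitotic kinase, had -0.49 (adjusted p = 0.52), and -0.65 without replicate 2 (adjusted p = 0.0040 without both displaced arrays). The medians by array over the TQ mean were -0.36, -0.60 and -0.39. Without TQ they were 0.19, 0.08 and -0.88, so replicates 1 and 2 of 5-FU alone lay above 0 and the displaced replicate 3 below. Without both displaced arrays 16 of the mitosis genes rose and 12 fell with 5-FU alone (median 0.13), and the interaction passed for 2 above and 22 below 0. Over all genes 14.9% rose and 13.4% fell with 5-FU alone in that setting, and the interaction passed for 5.88% above and 5.21% below 0. Of 47 DNA replication genes 0 rose and 0 fell, and 1 rose and 10 fell without both displaced arrays. In bulk RNA, fewer cycling cells and less RNA per cell cannot be told apart. Of 36 core histone genes 0 rose and 0 fell (median 0.29), and 11 rose and 0 fell without both displaced arrays (median 0.16). Their medians by array were 0.08, 0.63 and 0.21, highest in replicate 2.

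**Figure D5:**
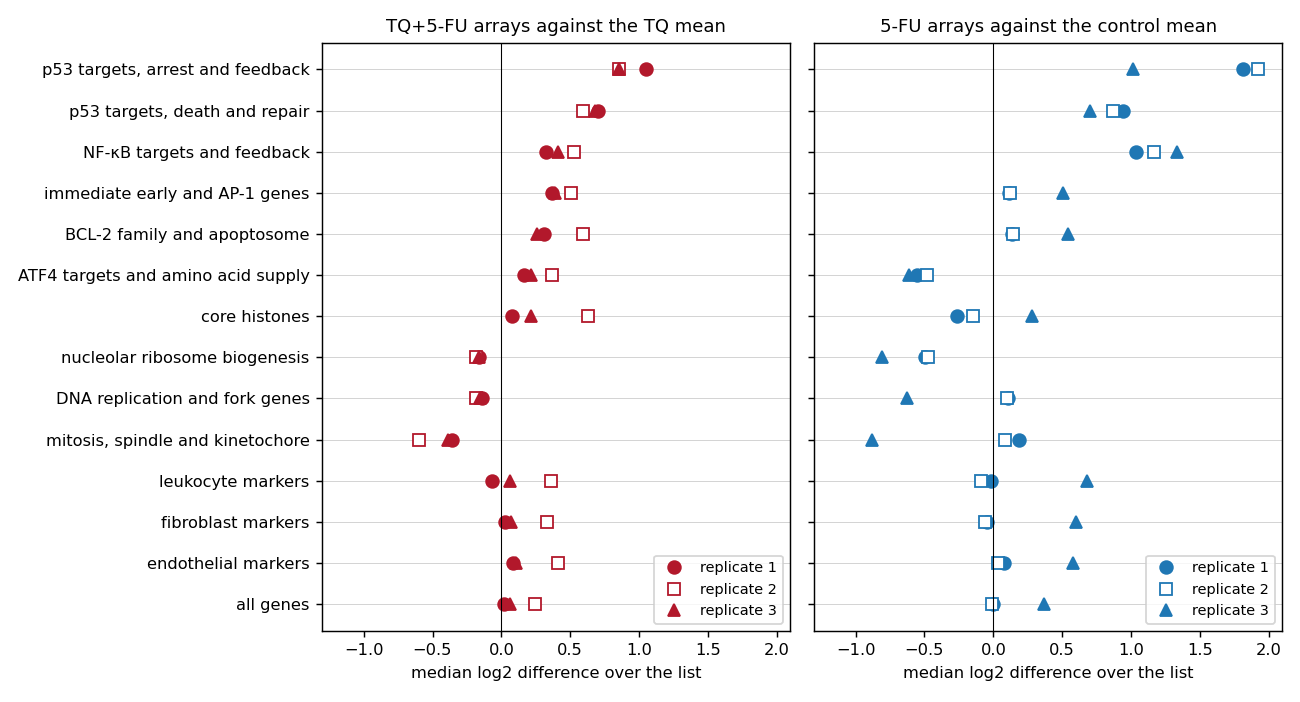
Median log2 difference over the members of 13 gene lists and over all genes, for each TQ+5-FU array against the TQ mean (left) and each 5-FU array against the control mean (right). The p53 arrest list lies at 1.05, 0.86 and 0.86 on the left, the NF-κB list lies lower on the left (0.32 to 0.53) than on the right (1.04 to 1.34), and the marker lists of other cell types are highest in TQ+5-FU replicate 2 and 5-FU replicate 3.

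A smaller set of genes rose with TQ+5-FU against TQ and did not pass with 5-FU alone, 21 of the 126. TSC22D3, a glucocorticoid-induced gene, was at 8.19, 8.33 and 8.13 with TQ and at 9.02, 9.41 and 9.17 with TQ+5-FU, a rise of 0.98 (SE 0.15, adjusted p = 0.018), and changed by 0.09 without TQ. Control cells had 8.84, 8.80 and 8.89. BTG1 rose by 0.68 with TQ, from 9.82, 10.01 and 9.87 to 10.55, 10.62 and 10.55, and changed by 0.13 without it. RPP40, a subunit of ribonuclease P, rose by 0.72 and changed by -0.02 without TQ, and KCNE5 rose by 0.78 and changed by -0.01. The interactions of these 4 genes were 0.90 (adjusted p = 0.21), 0.54 (0.23), 0.73 (0.11) and 0.79 (0.24), so a difference between the settings was not shown by this test. These genes were chosen after their values were seen. Without TQ+5-FU replicate 2 the adjusted p of TSC22D3, BTG1, RPP40 and KCNE5 were 0.079, 0.059, 0.065 and 0.12, and KCNE5 had a low mean signal with TQ (4.85). Others of the 21 came close to the threshold with 5-FU alone, such as DENND1A (0.56, adjusted p = 0.054), CHIC2 (0.47, adjusted p = 0.055) and FYN (0.345, adjusted p = 0.061).

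In the mitochondrial apoptosis machinery 18 genes were measured, of which 2 rose and 0 fell. These were BCL2A1, an inhibitor of apoptosis, from 11.93, 11.74 and 11.68 to 12.38, 12.38 and 12.32 (rise of 0.58, adjusted p = 0.036), and BCL2L13, from 8.61, 8.83 and 8.78 to 9.41, 9.46 and 9.38 (rise of 0.68, adjusted p = 0.036). Neither passed without TQ+5-FU replicate 2 (adjusted p = 0.14 in both), and 8 of the 18 rose without both displaced arrays. Of 19 death receptor signaling genes 0 rose and 0 fell, where 1.05% of all genes rose and 0.1% fell. This list leaves out TNFRSF10B, which was counted with the p53 targets and rose by 0.65. It also leaves out FAS, described above, which did not pass with all arrays and passed without both displaced arrays. Without both displaced arrays 3 of the 19 rose and 1 fell. EIF2AK3, the kinase PERK of the unfolded protein response, was at 7.58, 7.95 and 7.87 with TQ and at 8.02, 6.37 and 7.54 with TQ+5-FU, and CYLD, a deubiquitinase that restrains NF-κB, was at 7.84, 7.80 and 7.77 and at 8.63, 7.34 and 8.21. STK3, a kinase of the Hippo pathway, was at 8.38, 8.73 and 8.75 and at 9.08, 7.23 and 8.54. Replicate 2 was the lowest array in each, and the differences of -0.49, 0.26 and -0.34 did not pass (adjusted p = 0.78, 0.90 and 0.88). Without both displaced arrays CYLD rose by 0.62 (adjusted p = 0.025).

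Other lists had few members past the threshold with all arrays. Over all genes 1.05% rose and 0.1% fell with all arrays, and 8.55% and 4.2% without both displaced arrays. Of 45 autophagy and lysosome genes 2 rose, the autophagosome gene GABARAPL2 by 0.70 and the cholesterol transporter NPC2 by 0.52, and 0 fell. The autophagy gene MAP1LC3C is not in this list and fell (-0.67), as given above. Of 45 interferon and antigen presentation genes 2 rose, the peptide transporter TAP1 by 1.07 and ISG20 by 1.02, and 14 rose with 5-FU alone, as did 4.32% of all genes. When both displaced arrays were left out, 12 rose and 0 fell in each of these lists. Of 43 checkpoint and break repair genes 2 rose, RAD51C by 0.76 and HUS1 by 0.62, another probe set of which had the opposite sign, and 0 fell. The list as a whole lay lower, with 30 of 43 genes below 0 and a median of -0.38, and 2 rose and 9 fell when both displaced arrays were left out. Its medians by array were -0.22, -0.76 and -0.27, lowest in replicate 2, and the median was -0.20 without that array. Of 39 EMT and matrix genes 2 rose, among them the hyaluronan receptor gene CD44 by 0.65 (adjusted p = 0.020; 0.099 without TQ+5-FU replicate 2), for which 1 of 7 other probe sets had the opposite sign and 0 passed. No gene passed in the lists of 31 thymidylate metabolism genes, of which TYMS, the enzyme that 5-FU inhibits, differed by 0.10 (SE 0.087), of 32 NRF2 targets, of 38 heat shock genes and of 41 cytosolic ribosomal protein genes. In the same 4 lists 1, 6, 5 and 0 genes had an unadjusted p under 0.05, which 12.7% of all genes had. When both displaced arrays were left out, 1 thymidylate metabolism gene rose and 1 fell, 5 NRF2 targets and 4 heat shock genes rose, and no ribosomal protein gene passed. The 4 of 38 heat shock genes are near the 8.55% of all genes that rose in that setting.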

How the data were processed

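RNA of RKO cells was hybridised to Affymetrix HG-U133A 2.0 arrays, 3 per group. The authors deposited log2 signals, normalised by RMA, in 1 table, which was used as deposited. The methods name GeneSpring GX and the submitters' processing notes Affymetrix Expression Console. Array medians of the deposited values ran from 6.331 to 6.553, so the arrays did not share 1 distribution and a displaced array moves most genes. Of 22277 probe sets, 62 controls were left out. Each gene was read from the probe set, annotated to it alone, with the highest mean.

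The 12 arrays were fitted together with limma 3.58.1 (R 4.3.3), with 1 mean per group, and p-values were adjusted by Benjamini-Hochberg over 22215 probe sets (threshold 0.05). The contrasts were TQ+5-FU against TQ, 5-FU against control and their difference. The fit was tested on simulated data. Alternatives were leaving out each array, both displaced arrays, a replicate block, quantile normalisation, median centring, a filter on the dimmest 30%, array weights, the arrays compared alone, the trended and robust prior and the methods' tests. Genes named were the 15 largest increases and decreases, up to 4 passing members and the lead gene of each of 32 lists, genes the study measured again and the 10 lowest interaction p-values. Others were named after their values were seen. Genes and lists were chosen with earlier results of these data known.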

Additional observations from a re-analysis of the deposited data

Results flagged for a closer look

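The change by 5-FU with TQ minus the change by 5-FU without TQ passed limma's interaction test for 20 genes, which is what brought them here. The difference, on the log2 scale, was above 0 for ATF4 (1.25), PTCH1 (1.46), TBL1X (1.38), CEBPG (1.21), TMEM268 (1.24), SOX4 (1.08), AARS1 (0.98), CARS1 (0.97), YARS1 (1.03), CHAC1 (2.88), BHLHE41 (1.02), TUBAL3 (1.33), NAT10 (1.02), NOP14 (0.87) and TWNK (0.97). It was below 0 for TRAF1 (-3.21), GREB1 (-2.28), TNFAIP3 (-1.21), EBI3 (-2.65) and DGKA (-1.07). GREB1 had low mean signals without 5-FU (3.47 in control cells and 3.84 with TQ), so the size of its difference is uncertain. All 20 had adjusted p between 0.031 and 0.050, none passed without TQ+5-FU replicate 2, and all passed without both displaced arrays. Single arrays were not tested as outliers within a group, since each group holds 3 arrays.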

How the results depend on the processing

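For TQ+5-FU against TQ, 215 probe sets passed, and leaving out 1 array at a time gave 32 to 2682, the former without TQ replicate 3 and the latter without 5-FU replicate 3. The count was 45 without TQ+5-FU replicate 2 (44 of them among the 215), 2606 without both displaced arrays and 1591 with only the arrays of both groups and TQ+5-FU replicate 2 left out, an alternative chosen after seeing the data. It was 122 with only the arrays compared, 127 with arrays centred on their median, 12868 with array weights, 886 with the methods' ANOVA and Tukey's HSD, and 3342 (unadjusted) or 40 (Benjamini-Hochberg) with the methods' t-test. For 5-FU against control, 1483 passed, with 661 to 3205 when 1 array was left out, 5802 without both displaced arrays, 162 with only the arrays compared, 11784 with array weights, and 2588 or 265 with the methods' t-test. For the interaction 28 passed, with 0 to 623 when 1 array was left out, 2196 without both displaced arrays, 0 with centred arrays (991 at an unadjusted p under 0.05), 11 with a trended and robust prior and 12023 with array weights. The array weights did not converge, so those counts carry no weight.

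With the replicate block, 79 probe sets passed for TQ+5-FU against TQ, 1063 for 5-FU against control and 0 for the interaction (1175 at an unadjusted p under 0.05). Deviations of same-numbered arrays correlated between -0.84 and 0.86. The displaced arrays carry different numbers, and the deviations of 5-FU replicate 3 and TQ+5-FU replicate 2 correlated at 0.88. This check therefore cannot tell whether equal numbers mark a shared culture or day. The median over all probe sets was 0.08, and 0.11 after centring. STK3 turned to 0.193 without TQ+5-FU replicate 2 (-0.736 to 0.193 when 1 array was left out), in all 3 fits without it, CYLD to -0.027 without TQ+5-FU replicate 1 (up to 0.62 without replicate 2), and CD44 to -0.94 when read from its probe set of largest variance. Over the named genes and all alternatives, genes that passed kept call and direction in 806 results and lost the call in 412, and genes that did not pass kept this in 649 and passed in 97. The causes were not tested. With 3 arrays a group, an exact permutation test cannot go below 0.1, and the number of arrays limits the precision.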
